A study of Homo sapiens with 6 samples.

Results

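The proteasome subunits and chaperones were examined in DU145 cells that overexpressed TFEB. Members were the protein-coding genes of the deposited expression table whose symbol starts with PSMA to PSMG followed by a number, and 33 of the 10542 listed genes met this rule. DU145 is a human prostate cancer cell line, TFEB is a transcription factor known for driving lysosomal and autophagy genes, and polyadenylated RNA was sequenced from 3 libraries of cells given a TFEB lentivirus (DU145-TFEB) and 3 libraries of cells given an empty lentivirus (DU145-Vector). Both groups were cultured alike and both carried a lentivirus. The promoter of the transgene, the time after infection and whether the infected cells were pools or clones are not given in the sources used here. The labels do not say whether the 3 libraries of a group came from separate cultures, and p-values measure the spread between these libraries, which may be technical.

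The proteasome is the large protease that degrades proteins tagged with ubiquitin. Its core particle is a barrel of stacked rings: the outer rings are built of alpha subunits (PSMA), which gate the entrance, and the inner rings of beta subunits (PSMB), which hold the proteolytic sites. The regulatory particle caps the barrel. Its base consists of ATPases (PSMC) that unfold the substrate and of scaffold and ubiquitin-binding subunits (PSMD), and its lid (PSMD) removes the ubiquitin chain. The core can also be capped by activators (PSME), and dedicated chaperones (PSMG for the core, PSMD5, PSMD9 and PSMD10 for the base) assist assembly. Since subunits are needed in fixed proportions, proteasome genes are known for being induced together, mainly by the transcription factor NFE2L1.

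The 33 listed members were part of the 48 protein-coding PSMA to PSMG genes in GENCODE 29. They comprised 12 core subunits, namely 5 of 8 alpha subunits, 5 of 7 constitutive beta subunits and 2 of 4 tissue-restricted beta subunits. Of the regulatory particle 16 genes were listed, namely 5 of 6 ATPases, all 3 other base subunits, 6 of 8 lid subunits and 2 of 3 chaperones. A further 3 activators and 2 core chaperones completed the set. The 15 genes not analysed here are PSMA5, PSMA7, PSMA8, PSMB1, PSMB2, PSMB10, PSMB11, PSMC5, PSMD7, PSMD9, PSMD11, PSME3, PSMF1, PSMG1 and PSMG2.

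Values are normalized counts, that is read counts divided by 1 size factor per library. The libraries held 13999961 to 16511477 reads on the listed genes, and the lowest value of a member corresponded to 60 reads (PSMA2). TFEB itself was at 6325, 6301 and 6036 normalized counts in DU145-TFEB against 127, 124 and 125 in DU145-Vector, a log2 difference of 5.62 (SE 0.0751, limma adjusted p = 3.18e-10). Every listed gene had passed an adjusted p of 0.05 in the deposited table, which makes the list a selection on these same libraries. Accordingly, limma on log2(normalized count + 1) called 10539 of the 10542 genes (100%), and a call alone carries little information about a member. Of the epithelial markers KRT8, KRT18, KRT19, KRT7, EPCAM and CDH1, the 3 keratins KRT8, KRT18 and KRT19 were listed and all were lower in DU145-TFEB, and none of 8 markers of blood, endothelial and stromal cells was listed. In bulk RNA, fewer cells with a transcript and less of it per cell cannot be told apart.

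The proteasome genes did not move as a block. Of the 33 members, 18 were higher in DU145-TFEB (47.6% of all listed genes were higher) and 15 were lower (52.4% of all listed genes), and in all 33 the 3 DU145-TFEB libraries lay outside the range of the 3 DU145-Vector libraries, as they did for 99.3% of all listed genes. The median log2 fold change was 0.29 over the members and -0.36 over all listed genes. Standard errors ran from 0.0749 to 0.192 and limma adjusted p-values from 4.21e-06 to 0.0306. Most differences were small. At the cutoffs of the study's methods (adjusted p below 0.05 and absolute log2 fold change above 1.5), 1 member was a differentially expressed gene, against 19.1% of all listed genes, and 2.54% of all listed genes were higher and 16.5% lower at that size. This member was PSME4. The cutoffs were applied to limma here, while the study used DESeq2. With DESeq2 on recovered reads, 484 listed genes were higher and 1078 lower at these cutoffs. Among the members PSME4 alone passed them (log2 fold change -1.68). At an absolute log2 fold change above 1 there were 5 members, PSME4, PSMD5, PSMC6, PSMD12 and PSMD1, all of them lower, against 39.5% of all listed genes in either direction, 8.41% higher and 31.1% lower. A change above 1.5-fold was reached by 15 members, against 69% of all listed genes.

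**Figure D1:**
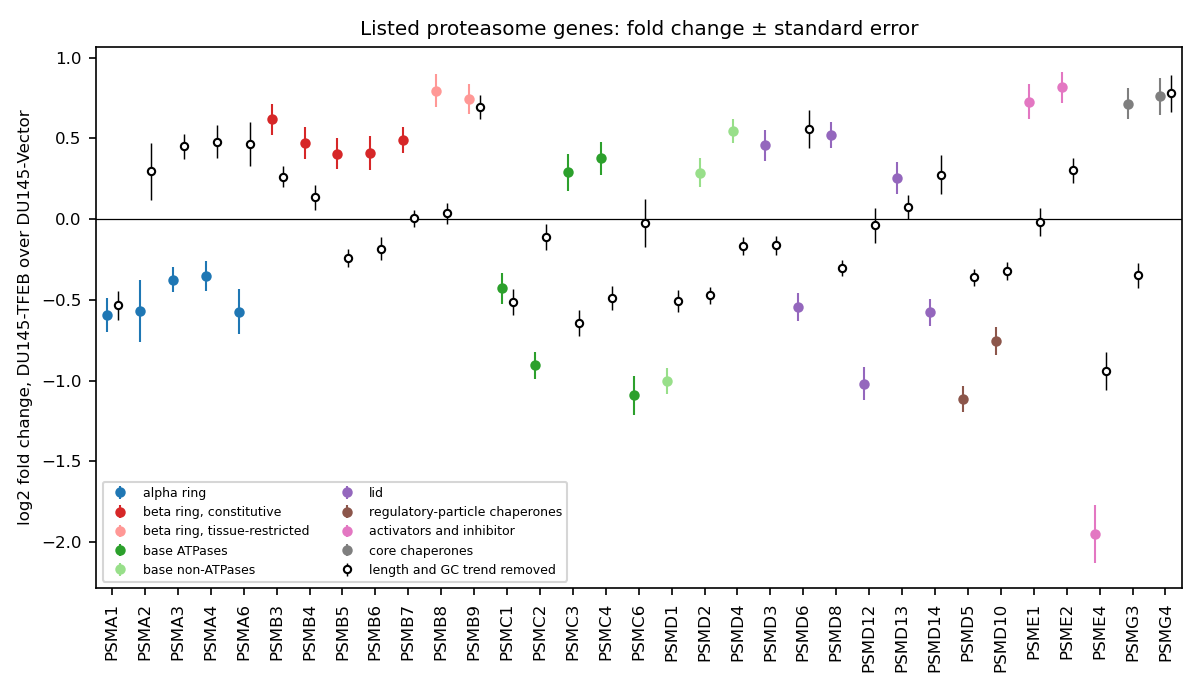
Log2 fold change (DU145-TFEB over DU145-Vector) of each of the 33 members, with bars of 1 standard error. Filled points use the normalized counts as deposited and are coloured by the place of the subunit in the complex. Open points use values after the trend against gene length and transcript GC content was removed. All 5 alpha subunits (blue) lie below 0 and all 5 constitutive beta subunits (red) above 0 before that step, and PSME4 is lowest at -1.95.

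The direction of a member went with the base composition of its transcript. The 18 higher members had a GC content of 46.9 to 58.8% (median 53.1%) in their longest transcript, and the 15 lower members one of 32.0 to 48.7% (median 40.7%). The ranges overlapped only in PSMC1, a lower member at 48.7%, which lay above PSMB9 (46.9%) and PSMB4 (48.2%) on the higher side. Higher members were also shorter, with a median gene length of 2692 bases against 5364. Across the 33 genes the log2 fold change correlated with GC content with Pearson's r 0.79 and Spearman's rho 0.71, and with gene length with rho -0.50. This is a description across genes, which share the same 6 libraries. The relation was a property of the whole table, since rho with GC content was 0.74 over 10537 listed genes. The part of base composition and length in the differences between the groups was not tested. A second set of values was therefore computed, in which each library's trend of log2 value against gene length and transcript GC content was subtracted. Its values are given beside those as deposited for the members described in detail.

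**Figure D2:**
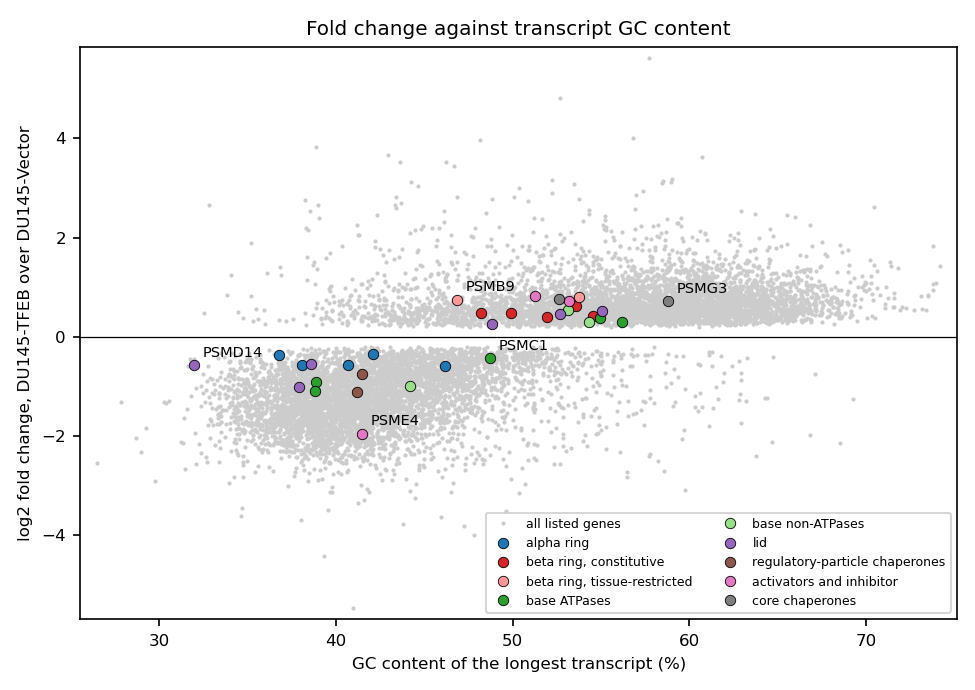
Log2 fold change against the GC content of the longest transcript (%). Grey points are the listed genes with a GC value and coloured points the 33 members by subunit class. Members under 46.9% GC lie below 0, PSMC1 is the lower member with the highest GC content (48.7%), and PSMB9 is the higher member with the lowest (46.9%).

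With this trend removed, 8 members were higher (16.3% of all listed genes), 15 were lower (51.2%) and 10 passed the test in neither direction, against 67.6% of listed genes called either way, and no member reached the cutoff of 1.5 (5.36% of all listed genes, 1.7% higher and 3.66% lower). Of the 33 members, 10 kept both direction and call. These were PSMB3, PSMB9, PSME2 and PSMG4 on the higher side and PSMA1, PSMC1, PSMD1, PSMD5, PSMD10 and PSME4 on the lower side. The sign turned for 16 members, and 7 kept the sign but no longer passed the test. The median over the members was then -0.04, and over all listed genes -0.28. When the libraries were in addition centred on 1 median, 15 members were higher (30.5% of all listed genes), 3 were lower (28.6%) and 15 passed in neither direction, where 59.1% of all listed genes were called either way. The members that rose or fell thus depended on the scale chosen.

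Core particle and regulatory particle were compared first. As deposited, the median log2 fold change was 0.41 over the 12 core subunits (7 higher, 5 lower) and -0.49 over the 16 regulatory-particle genes (7 higher, 9 lower), a difference of 0.89. On that scale 47.6% of all listed genes were higher and 52.4% lower. As deposited, the difference rested on which genes were counted. Without the assembly chaperones and the tissue-restricted beta subunits, the medians were 0.03 over 10 constitutive core subunits (5 higher, 5 lower) and -0.09 over 14 base and lid subunits (7 higher, 7 lower), 0.11 apart. After removal of the trend the medians of the full groups were 0.20 for the core (5 higher, 3 lower) and -0.24 for the regulatory particle (1 higher, 10 lower), where 16.3% of all listed genes were higher and 51.2% lower. With libraries centred as well, the regulatory median turned to 0.054 (3 higher, 1 lower) and the core median was 0.49 (9 higher, 1 lower). There 30.5% of all listed genes were higher and 28.6% lower. The medians of the constitutive core and of base and lid were 0.20 and -0.16 with the trend removed. They were 0.49 and 0.12 with libraries centred as well. Subunits are not replicates of each other, and no test was made on these medians.

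Within the core particle, alpha and beta subunits lay on opposite sides. All 5 listed alpha subunits were lower in DU145-TFEB, with log2 fold changes from -0.60 to -0.35 (median -0.57), and all 5 listed constitutive beta subunits were higher, from 0.41 to 0.62 (median 0.47). Of all listed genes, 52.4% were lower and 47.6% higher. The alpha transcripts had a GC content of 36.7 to 46.2% and the beta transcripts of 48.2 to 54.5%. After removal of the trend, the order turned: the alpha median was 0.45 (3 higher, 1 lower) and the beta median 0.01 (1 higher, 2 lower). Of all listed genes, 16.3% were then higher and 51.2% lower, with a median of -0.28. With libraries centred as well, the alpha median was 0.74 (4 higher, 1 lower) and the beta median 0.30 (3 higher, 0 lower). On that scale 30.5% of all listed genes were higher and 28.6% lower. DESeq2 on recovered reads kept the signs of all 10, and 4 of the alpha subunits (PSMA2, PSMA3, PSMA4 and PSMA6) then had adjusted p-values of 0.062 to 0.335.

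PSMA1 (chr11:14504874-14643635, minus strand, GRCh38), a subunit of the alpha ring, had 368, 375 and 352 normalized counts in DU145-TFEB and 557, 609 and 497 in DU145-Vector. Its highest DU145-TFEB library was thus well under its lowest DU145-Vector library, with a log2 fold change of -0.60 (SE 0.105, limma adjusted p = 4.90e-04), and it was the alpha subunit that stayed lower after removal of the trend (-0.53). Quantile normalization ended this call (-0.16, limma adjusted p = 0.194), and the value was -0.24 once libraries were also centred. For PSMA6 the values were 159, 167 and 155 against 222, 283 and 216 (log2 fold change -0.57), and the sign turned after removal of the trend (0.47). PSMA2 was the least abundant member, at 63.1, 65.5 and 63.3 against 77.4, 120.0 and 93, and its DU145-Vector libraries spread widely (SD 21.5 against 1.32). Its log2 fold change of -0.57 (limma adjusted p = 0.0159) turned to 0.30 after removal of the trend (adjusted p = 0.16). PSMA3 and PSMA4 showed the smallest decreases, -0.37 and -0.35, and had values of 0.45 and 0.48 with the trend removed. Some alpha genes have near copies: 47.7% of the 31-base windows of PSMA1, 39.4% of those of PSMA2 and 19.3% of those of PSMA6 also occur in the transcript of another gene, and how the counting split such reads is not given in the sources used here.

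As deposited, the beta ring rose by similar amounts in its catalytic and non-catalytic subunits. PSMB3, a non-catalytic subunit, had 5362, 6414 and 4998 normalized counts in DU145-TFEB and 3684, 3416 and 3768 in DU145-Vector (log2 fold change 0.62, SE 0.0957, limma adjusted p = 2.20e-04), and remained higher with the trend removed (0.26). PSMB4 was the most abundant member per kilobase, at 12948, 15731 and 11778 against 9818, 9489.7 and 9635 normalized counts (log2 fold change 0.47), and with the trend removed its value was 0.14 (adjusted p = 0.141). The 3 constitutive catalytic subunits followed. PSMB5, the chymotrypsin-like subunit, was at 2571, 2957 and 2349 against 2027, 1833 and 2064 (log2 fold change 0.41). PSMB6, the caspase-like subunit, was at 5506, 6731 and 4933 against 4403, 4064 and 4363 (0.41). PSMB7, the trypsin-like subunit, was at 6145, 7078 and 5991 against 4681, 4327 and 4663 (0.49). In each of them all DU145-TFEB libraries were above all DU145-Vector libraries, and DU145-TFEB replicate 2 was the highest. With the trend removed their values were -0.24, -0.18 and 0.01, where the median of all listed genes was -0.28. With libraries centred as well, PSMB5 was at 0.05, PSMB6 at 0.11 and PSMB7 at 0.30. Among these, PSMB7 passed the test (limma adjusted p = 0.00835) and the others did not (0.601 and 0.359). PSMB4 was then at 0.42 (limma adjusted p = 0.00787) and PSMB3 at 0.55 (limma adjusted p = 0.0011). On both of these scales the 2 non-catalytic subunits lay above the 3 catalytic ones.

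**Figure D3:**
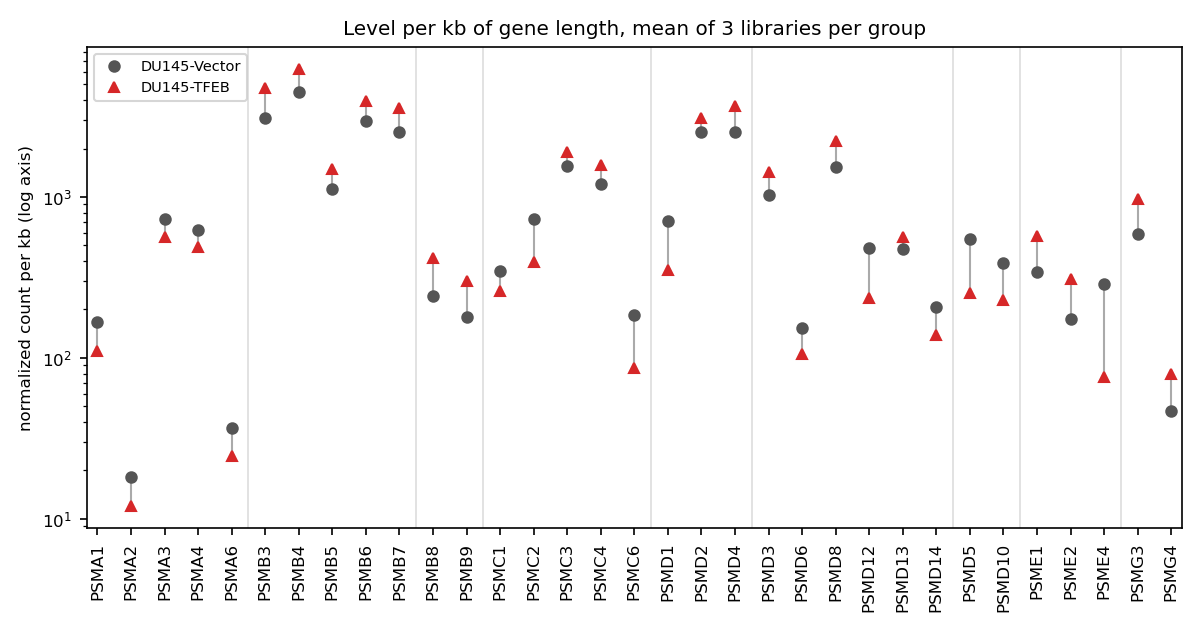
Mean normalized count per kilobase of gene length (log axis) of each member in DU145-Vector (circles) and DU145-TFEB (triangles), with grey lines between subunit classes. Constitutive beta subunits lie between 1119 and 6249 and alpha subunits between 12.0 and 729, and most shifts between the groups are small beside the spread between genes.

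Levels per kilobase of gene length differed far more between members than between groups. In DU145-Vector the constitutive beta subunits were at 1119 to 4471 normalized counts per kilobase and the alpha subunits at 18.1 to 729. The extremes were the same genes in both groups, PSMA2 (18.1 in DU145-Vector and 12.0 in DU145-TFEB) and PSMB4 (4471 and 6249). The summed level per kilobase of the 5 alpha subunits was 6.08, 5.59 and 6.40% of that of the 5 constitutive beta subunits in DU145-TFEB, and 10.5, 12.8 and 10.3% in DU145-Vector. The lower share in all 3 DU145-TFEB libraries restates the opposite signs given above. Gene length was taken from the deposited table. It equals the summed exons of all annotated transcripts for all 33 members and exceeds the longest transcript for all 33, so levels per kilobase are understated in both groups, by amounts that differ between genes and bear on ranks and on ratios between genes.

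The immunoproteasome subunits rose, with larger fold changes than the constitutive subunits they replace. PSMB8 and PSMB9 are induced by interferon and take the places of PSMB5 and PSMB6, which alters the peptides made for presentation on MHC class I. Both lie next to each other in the MHC region (PSMB8 at chr6:32840717-32844703, minus strand; PSMB9 at chr6:32844136-32859585, plus strand). PSMB8 was at 1247, 1366 and 1159.8 normalized counts in DU145-TFEB and 759.6, 642 and 773 in DU145-Vector, a 1.73-fold higher mean (log2 fold change 0.80, SE 0.102, limma adjusted p = 6.80e-05). PSMB9 was at 912, 980.0 and 884 against 539, 519.8 and 599, a 1.67-fold higher mean (log2 fold change 0.74, SE 0.0917, limma adjusted p = 5.45e-05). The groups were well apart for both genes. Per kilobase, PSMB8 amounted to 28.3 ± 0.973% of PSMB5 in DU145-TFEB, against 21.6 ± 0.831% without the transgene (SD, n = 3 each), and PSMB9 to 7.71 ± 0.795% of PSMB6 against 6.09 ± 0.354%. Neither ratio overlapped between the groups, and each reached p = 0.1 in the exact two-sided permutation test (0.15 after Benjamini-Hochberg adjustment over 6 pairs), which is the smallest p that 3 against 3 libraries allow.

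Both log2 ratios were also higher with the trend removed, by 0.28 ± 0.0487 (SE) for PSMB8 over PSMB5 and by 0.88 ± 0.0927 for PSMB9 over PSMB6, against 0.39 ± 0.0434 and 0.33 ± 0.0995 as deposited. For PSMB8 itself, the value with the trend removed was 0.04 (adjusted p = 0.635), and for PSMB9 it was 0.69 (adjusted p = 6.26e-05). The median of all listed genes was then -0.28. With libraries centred as well, PSMB8 was at 0.33 (limma adjusted p = 0.0052) and PSMB9 at 0.98 (limma adjusted p = 4.53e-05). The ratio of PSMB8 to PSMB9 overlapped between the groups, at 1.39 ± 0.0423 and 1.34 ± 0.0914 per kilobase, a log2 difference of 0.05 ± 0.0615 (exact permutation p = 0.5). After removal of the trend it was -0.66 ± 0.041 and the groups did not overlap (exact permutation p = 0.1). The annotated span of PSMB8 overlaps those of PSMB9 and the antisense gene PSMB8-AS1, and the span of PSMB9 that of TAP1, and strand use in the counting is not given in the sources used here, so that reads of these neighbours may not be fully separated. Of the 31-base windows of PSMB8, 18.9% also occur in another gene.

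**Figure D4:**
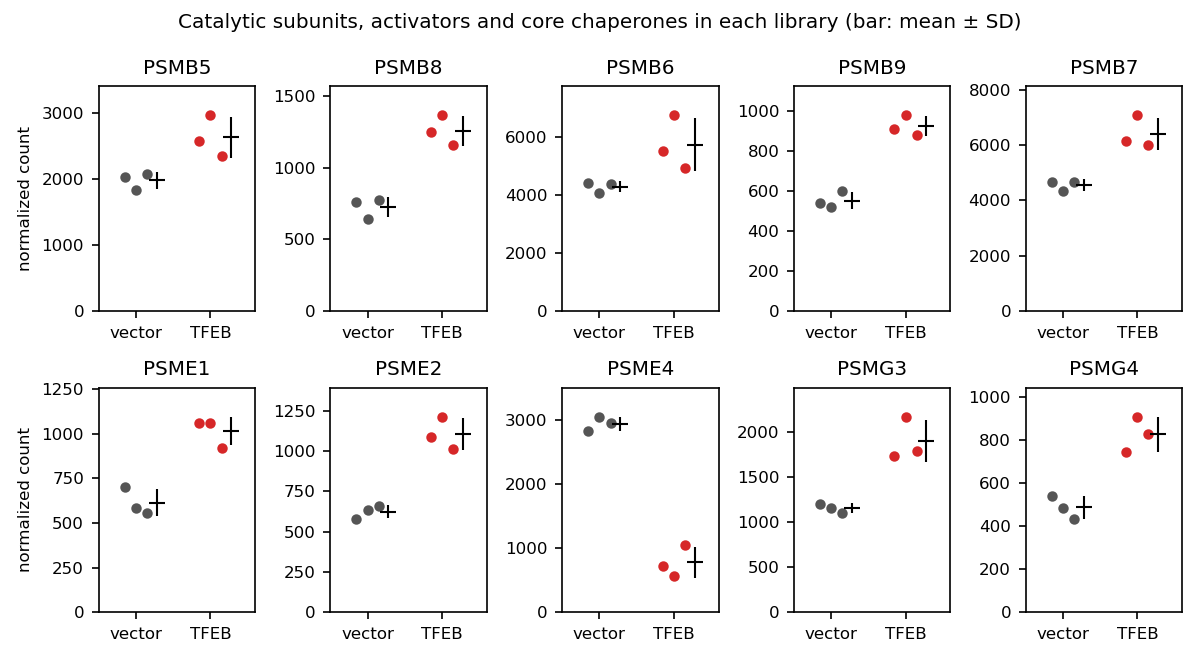
Normalized counts of the catalytic subunits, activators and core chaperones in each library (points) with the mean and SD of 3 libraries (bars), each panel starting at 0. The immunoproteasome subunits PSMB8 and PSMB9, PSME1, PSME2 and both PSMG genes are higher in every DU145-TFEB library, and PSME4 is lower, at 571 to 1045 against 2822 to 3040.0.

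The activators divided by type. PSME1 and PSME2 form the ring-shaped activator PA28, which is likewise induced by interferon, while PSME4 encodes PA200, a single large protein of the nucleus. PSME1 (chr14:24136158-24138967, plus strand) was at 1059, 1061 and 921 normalized counts in DU145-TFEB and 699.9, 584 and 555 in DU145-Vector (log2 fold change 0.73, SE 0.11, limma adjusted p = 1.88e-04). PSME2 (chr14:24143362-24147570, minus strand) was at 1087, 1213 and 1014 against 580.3, 635 and 662 and was the most increased member, 1.77-fold (log2 fold change 0.82, SE 0.0965, limma adjusted p = 4.22e-05). As deposited both rose: the ratio PSME1 over PSME2 per kilobase was 1.85 ± 0.102 in DU145-TFEB and 1.99 ± 0.388 in DU145-Vector, and the groups overlapped. The annotated span of PSME2 overlaps that of RNF31 and the span of PSME1 that of EMC9, so reads of these neighbours may not be fully separated. Of the 31-base windows of PSME2, 15.2% also occur in another gene. With the trend removed, PSME2 was at 0.30 (adjusted p = 0.00776) and PSME1 at -0.02 (adjusted p = 0.861), where the median of all listed genes was -0.28. With libraries centred as well, PSME2 was at 0.59 (limma adjusted p = 5.14e-04) and PSME1 at 0.27 (limma adjusted p = 0.0289). The log2 ratio of PSME1 to PSME2 with the trend removed was lower in DU145-TFEB, at -0.32 ± 0.157 (SE), without overlap of the groups (exact permutation p = 0.1).

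PSME4 (chr2:53864067-53970840, minus strand) was the most decreased member and the only one past the cutoff of 1.5. Its 3 DU145-TFEB libraries had 731, 571 and 1045 normalized counts and its DU145-Vector libraries 2822, 3040.0 and 2956, a 3.76-fold lower mean (782 ± 241 against 2939 ± 110.0; log2 fold change -1.95, SE 0.18, limma adjusted p = 1.10e-05). The DU145-TFEB libraries spread more than the DU145-Vector libraries, and still lay far under them. PSME4 was the second longest member (10241 bases), its transcript had a GC content of 41.5%, and with the trend removed its log2 fold change was -0.94 (SE 0.12, adjusted p = 1.64e-04), still the lowest among the members. With libraries centred as well, PSME4 was at -0.65 (limma adjusted p = 8.93e-04). Per kilobase, PSME1 and PSME2 together were 12.6, 16.8 and 7.85 times PSME4 in DU145-TFEB and 2.01, 1.70 and 1.72 times in DU145-Vector. The log2 ratio of PSME2 to PSME4 was higher in DU145-TFEB by 2.77 ± 0.328 (SE), and by 1.24 ± 0.186 with the trend removed (exact permutation p = 0.1 in both).

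Promoter sequences from RefSeq (GRCh38.p14; 250 bases before to 50 after the start) were at hand for 29 of the 33 members. They were searched on both strands for GAAA, any 2 bases and GAAA again, a repeat of the kind bound by interferon-regulatory factors, for TGACNNNGC, the core of the antioxidant response element used by NFE2L1 and NFE2L2, and for CACGTG, the E-box that TFEB binds. The repeat is shown because PSMB8 and both PA28 genes carry it, while no match was found in the promoter of PSMB9. It was found in 6 members (5 higher, 1 lower) and in 3.57% of all 35116 promoters. In 4 of the 6 the bases between were GC, a form that 0.0997% of all promoters hold; this spelling was singled out after the sites had been seen. Each line below runs 5′ to 3′ along the gene's strand, with the repeat or its reverse complement in capitals.
PSMB8 (chr6:32844032-32844061, minus strand): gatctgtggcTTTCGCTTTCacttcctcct
PSME1 (chr14:24136189-24136218, plus strand): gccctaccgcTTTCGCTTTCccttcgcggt
PSME2 (chr14:24146619-24146648, minus strand): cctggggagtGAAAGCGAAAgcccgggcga
PSMG4 (chr6:3258904-3258933, plus strand): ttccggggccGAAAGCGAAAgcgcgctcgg
PSMB4 (chr1:151399495-151399524, plus strand): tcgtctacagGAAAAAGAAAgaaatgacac
PSMA4 (chr15:78540155-78540184, plus strand): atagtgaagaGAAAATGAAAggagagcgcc

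The exact repeat began 4 bases before the start in PSMB8 and so ran across it. In PSME2 its first base lay 28 bases before the start, in PSMG4 33 before it and in PSME1 at base 6 of the transcript. In all promoters, 34 genes had it, of which 15 were listed, 10 higher and 5 lower in DU145-TFEB (median log2 fold change 0.47, against -0.36 over all listed genes). These 15 include the 4 members from which the spelling was picked. Without them, 6 were higher and 5 lower (median 0.26). After removal of the trend, 2 of the 15 were higher and 9 lower (median -0.30), and without the 4 members 0 were higher and 9 lower of 11 (median -0.40). Of all listed genes, 47.6% were higher and 52.4% lower as deposited. With the trend removed, 16.3% of them were higher and 51.2% lower, with a median of -0.28. Among the 15 were 2 neighbours of members, TAP1 beside PSMB9 (0.58, and -0.34 with the trend removed) and RNF31 beside PSME2 (0.71 and -0.30), while PARP14, OTUD4, FAM111A and SENP1 were lower by more than the cutoff (-2.01, -2.12, -2.02 and -1.59). These genes were named after their values had been seen. The repeat thus occurred in genes of both directions.

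The antioxidant core TGACNNNGC was found in 11 members, 6 higher and 5 lower, and in 13.3% of all promoters. It is shown for a pair of higher and a pair of lower members, since it did not separate the directions.
PSMB3 (chr17:38752627-38752655, plus strand): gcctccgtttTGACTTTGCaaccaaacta
PSMD3 (chr17:39980760-39980788, plus strand): tcccctttgtTGACTCGGCcatcggcctg
PSMA4 (chr15:78540650-78540678, plus strand): gtgggcacgaTGACTCTGCaccgcctcct
PSMD12 (chr17:67366724-67366752, minus strand): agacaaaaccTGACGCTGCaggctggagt
The E-box CACGTG was in 1 member, PSMB3, 238 bases before the start, and in 7.26% of all promoters.
PSMB3 (chr17:38752493-38752518, plus strand): ttcaccagccCACGTGcgcgcaggct
A match describes the letters of these windows and not a bound site. For PSME2, which holds both the repeat and the antioxidant core, the 250 bases before the start (chr14:24146611-24146860, minus strand, GC content 69.6%) are given with both in capitals.
PSME2 promoter: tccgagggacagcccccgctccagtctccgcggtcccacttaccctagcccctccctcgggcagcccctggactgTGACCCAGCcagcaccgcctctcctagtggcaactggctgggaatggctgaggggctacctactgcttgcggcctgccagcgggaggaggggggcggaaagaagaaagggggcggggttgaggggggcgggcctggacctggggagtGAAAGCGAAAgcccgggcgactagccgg

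In the regulatory particle, both directions occurred in each part except the chaperones. Of the 5 ATPases, which form the unfolding ring, PSMC3 and PSMC4 were higher (log2 fold changes 0.29 and 0.38) and PSMC1, PSMC2 and PSMC6 lower (-0.43, -0.90 and -1.09). As deposited, the subunits of this ring of fixed composition differed in direction, while with the trend removed 0 were higher and 3 lower. Of all listed genes, 16.3% were then higher and 51.2% lower. With libraries centred as well, 0 of the ATPases were higher and 1 was lower, against 30.5 and 28.6% of all listed genes. PSMC6 had 613, 735 and 599 normalized counts in DU145-TFEB and 1209, 1600.5 and 1356 in DU145-Vector, a 2.14-fold lower mean (SE 0.122, limma adjusted p = 3.05e-05). Its transcript had a GC content of 38.8%, that of PSMC3 one of 56.2%, and with the trend removed the values were -0.03 for PSMC6 and -0.64 for PSMC3. PSMC3 is also an uncertain call. Without DU145-TFEB replicate 2 its log2 fold change was 0.14 (limma adjusted p = 0.0626, against 0.0302 with all libraries), and without DU145-Vector replicate 1, 2 or 3 it was 0.30, 0.30 and 0.28 (limma adjusted p = 0.0636, 0.0690 and 0.0810). For PSMC2 the value with the trend removed was -0.11 (adjusted p = 0.244), and for PSMC4 it was -0.49. PSMC1, lower in both sets of values (-0.52 with the trend removed), has 13 pseudogenes in GENCODE 29 and shares 97.7% of its 31-base windows with other genes, so its count is uncertain.

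The non-ATPase base subunits showed the same division. PSMD4, a ubiquitin receptor, had 11076, 12220.4 and 10298 normalized counts in DU145-TFEB and 7753, 7736 and 7485 in DU145-Vector, the largest increase in the regulatory particle (log2 fold change 0.54, SE 0.0749, limma adjusted p = 1.07e-04). The scaffold subunits PSMD1 and PSMD2 went in opposite directions, PSMD1 from 3664 ± 187 in DU145-Vector to 1833 ± 149 in DU145-TFEB (SD, n = 3) and PSMD2 from 13794 ± 447 to 16902 ± 2084. With the trend removed, all 3 were lower, at -0.17 (PSMD4), -0.51 (PSMD1) and -0.47 (PSMD2), where the median of all listed genes was -0.28. With libraries centred as well, none of the 3 passed the test: PSMD4 was at 0.12 (limma adjusted p = 0.131), PSMD1 at -0.22 (0.0558) and PSMD2 at -0.18 (0.055). Of the 31-base windows, 41.4% in PSMD4 and 19.3% in PSMD2 also occur in another gene.

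In the lid, 3 of 6 subunits were higher and 3 lower (47.6 and 52.4% of all listed genes), with a median of -0.14. PSMD8 was at 6557, 7722 and 6429 normalized counts in DU145-TFEB and 4906, 4613 and 4873 in DU145-Vector (log2 fold change 0.52, SE 0.0819, limma adjusted p = 2.46e-04). PSMD3 was at 6675, 8250.4 and 6334 against 5181, 5019.9 and 5192 (0.46). PSMD12 was at 1205, 1390.4 and 1216 against 2529, 2902 and 2310, a 2.03-fold lower mean (log2 fold change -1.02, SE 0.0998, limma adjusted p = 1.50e-05). None of these 3 kept its direction and call: with the trend removed they were at -0.31, -0.16 and -0.04. PSMD14, the deubiquitinase of the lid, had the lowest GC content of all members (32.0%) and log2 fold changes of -0.58 as deposited and 0.28 (adjusted p = 0.0708) with the trend removed. PSMD6 was at -0.54 and 0.56. With libraries centred as well, 3 lid subunits were higher and 0 lower, against 30.5 and 28.6% of all listed genes. These were PSMD6 (0.85, limma adjusted p = 0.00131), PSMD13 (0.36, limma adjusted p = 0.00872) and PSMD14 (0.57, limma adjusted p = 0.0108). PSMD13 (0.25, limma adjusted p = 0.0306; 0.08 with the trend removed) had limma adjusted p-values of 0.0868, 0.101 and 0.0651 without DU145-TFEB replicate 2 and without DU145-Vector replicate 2 and 3, respectively.

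The assembly chaperones of the base and of the core differed in direction. PSMD5, which holds ATPases during assembly of the base, had 1085, 1085 and 1192 normalized counts in DU145-TFEB and 2360.3, 2613 and 2309 in DU145-Vector, a 2.17-fold lower mean (log2 fold change -1.11, SE 0.0801, limma adjusted p = 4.21e-06). PSMD10 (gankyrin), another base chaperone, was at 543, 552 and 599 against 976, 981 and 904 (log2 fold change -0.76, SE 0.0856, limma adjusted p = 3.31e-05). Both were also lower with the trend removed (-0.36 and -0.32), and both transcripts had a low GC content (41.2 and 41.5%). With libraries centred as well, neither passed the test, at -0.07 for PSMD5 (limma adjusted p = 0.279) and -0.031 for PSMD10 (limma adjusted p = 0.656).

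The core chaperones PSMG3 and PSMG4 act as a pair during assembly of the alpha ring. PSMG3 was at 1740.4, 2172 and 1795 normalized counts in DU145-TFEB and 1209.6, 1155 and 1099 in DU145-Vector (log2 fold change 0.71, SE 0.0968, limma adjusted p = 9.69e-05). PSMG4 was at 742, 905 and 827 against 541, 484 and 434 (log2 fold change 0.76, SE 0.114, limma adjusted p = 1.78e-04). As deposited the partners rose alike. With the trend removed PSMG4 was at 0.78 and PSMG3, which had the highest GC content of all members (58.8%), at -0.35. With libraries centred as well, PSMG4 was at 1.07 (limma adjusted p = 1.49e-04) and PSMG3 at -0.06 (limma adjusted p = 0.551). The gene of PSMG4 is listed with a length of 10418 bases, the longest of all members. This length exceeds the longest transcript and was used to remove the trend, so the values of PSMG4 on those scales depend on it.

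Genes that work with the proteasome were taken from lists written from general knowledge. Their counts stand against 47.6% of all listed genes higher and 52.4% lower as deposited, and 16.3 and 51.2% with the trend removed. Of 9 listed genes that bind or modify the proteasome (of 15), 2 were higher and 7 lower (median log2 fold change -1.03), and 1 was higher and 3 lower with the trend removed (median -0.07). PAAF1, which binds the base, was highest (0.53, and 0.99 with the trend removed), and ECPAS, a scaffold of the proteasome, lowest (-1.58 and -1.04). Of 8 listed genes that control proteasome gene transcription (of 9), 4 were higher and 4 lower (1 and 5 with the trend removed). NFE2L1 was at 9657 to 10119 normalized counts in DU145-TFEB and 5752 to 6400 in DU145-Vector (log2 fold change 0.69, and -0.13 with the trend removed, adjusted p = 0.127). DDI2, the protease that activates NFE2L1, was the lowest of this list (-2.25, and -1.19 with the trend removed), and MAFG, its dimer partner, the highest as deposited (0.84), though at -0.08 (adjusted p = 0.282) with the trend removed. NFE2L2 was at 378 to 578 against 1362 to 1694 (log2 fold change -1.65, and -1.30 with the trend removed).

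Of the listed shuttle receptors, which carry ubiquitinated proteins to the proteasome, 2 were higher and 3 lower (0 and 1 with the trend removed), down to -0.94 for UBQLN1 (0.13 with the trend removed). Of 11 listed genes of the p97 unfoldase system 4 were higher and 7 lower (1 and 6 with the trend removed), from 0.81 for UBXN1 (0.0025 with the trend removed) to -2.09 for UBXN7 (-0.96). Among ubiquitin genes and activating enzymes 3 were higher and 1 lower (0 and 2 with the trend removed), from 0.62 for UBB (0.11 with the trend removed) to -1.99 for UBA6 (-0.87). Of 9 listed partners of the immunoproteasome in antigen processing (of 10), 8 were higher and 1 lower, with a median of 0.81, and 5 were higher and 1 lower with the trend removed (median 0.20). ERAP1, which trims peptides, was the lowest as deposited (-0.77) and at 0.27 with the trend removed, where TAP1 was the lower gene (-0.34), and their median GC content was 57.6%. For comparison with another complex of fixed composition, 1 of 7 listed subunits of the CCT chaperonin was higher (CCT7, 0.37) and 6 were lower, down to -1.19 (CCT8). All 7 were lower with the trend removed, CCT7 at -0.15 (adjusted p = 0.0191) and CCT8 at -0.74. On that scale 51.2% of all listed genes were lower and their median was -0.28. CCT7, TCP1 (-0.16) and CCT5 (-0.24) lay above that median and the other subunits below it. POMP, ADRM1 and SEM1 were not analysed here.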

How the data were processed

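RNA of both groups was made into libraries with a NEBNext Ultra kit and sequenced, and the submitters' processing notes name CASAVA 1.8, HISAT2 2.1.0, edgeR and GRCh38. The counting program, its annotation and its use of strand are not given in the sources used here. Gene positions equal GENCODE 29 for all 10542 listed genes. The authors deposited a normalized signal, which is each gene's read count divided by 1 size factor per library (0.950 to 1.10 here). Group means, fold changes and p-values of the authors' own comparison stand beside it and were not used, except to establish that every listed gene has an adjusted p below 0.05. Dividing by the smallest step gave whole reads for 100% of values within 0.01 read.

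Libraries were grouped by their labels. The deposited signal was taken as log2(normalized count + 1) and fitted over all listed genes with limma 3.58.1 in R 4.3.3, with its trend of variance on mean and no block term, and p-values were adjusted by Benjamini-Hochberg over all listed genes. Fold changes on this scale are slightly understated for low genes. A gene was a differentially expressed gene when its adjusted p was below 0.05 and its log2 fold change lay beyond 1.5 in either direction. Positive values are higher in DU145-TFEB. For the second set of values, a loess fit (span 0.5) of log2 value was subtracted within each library for 10537 genes. Its predictors were the logarithm of the deposited gene length and the GC content of the longest transcript. Exact permutation tests over libraries were two-sided. Alternatives were DESeq2 1.42.0 and edgeR 4.0.16 on recovered reads, other scalings, pseudocounts of 0.5 and 5, a minimum of 10 normalized counts in every library (9758 genes), leaving out each library, and a replicate block. Same-numbered libraries did not deviate together. Libraries of 1 group differed by more than counting noise (chi-square per gene 3.00 to 27.6), so none was merged. The fit was tested on simulated data. The members, the gene lists and the tests were chosen with earlier results of these data known. Values in every library are given for catalytic subunits, the 3 highest and 3 lowest core and regulatory members, and all PSME and PSMG members. A few genes of the other lists are not reported here.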

Additional observations from a re-analysis of the deposited data

How the results depend on the processing

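Scaling moved the median log2 fold change of all listed genes from -0.36 to between -0.40 (library size) and -0.03 (quantile normalization), and the differentially expressed genes among them from 268 higher and 1741 lower to 466 and 1105 with DESeq2 size factors and 563 and 808 with quantile normalization. The core median was 0.65 with DESeq2 size factors, 0.66 with DESeq2 on recovered reads and 0.20 with the length and GC trend removed. The regulatory median was -0.25 with either use of DESeq2, -0.31 with upper-quartile scaling, -0.33 with quantile normalization, -0.24 with the trend removed, 0.054 with the trend removed and libraries centred, and -0.088 as deposited over base and lid subunits only. Core minus regulatory was 0.65 with quantile normalization, 0.43 with the trend removed with or without centring, and 0.11 as deposited for the constitutive core against base and lid. Alpha minus beta, a comparison added after the data were seen, was -1.04 as deposited, -0.73 with quantile normalization and 0.44 with the trend removed, centred or not. There were 8 higher members with the trend removed and 3 lower members with centring, which was also added after the data were seen. With either, the number of members past the cutoff of 1.5 was 0, where 5.36% of listed genes passed it with the trend removed. At a cutoff of 1 there were 5 such members (39.5% of listed genes), and at 1.5-fold 15 (69%).

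Signs that turned with the trend removed were those of PSMA2 (0.30), PSMA3 (0.45), PSMA4 (0.48), PSMA6 (0.47), PSMD6 (0.56) and PSMD14 (0.28), which became positive, and PSMB5 (-0.24), PSMB6 (-0.18), PSMC3 (-0.64), PSMC4 (-0.49), PSMD2 (-0.47), PSMD3 (-0.16), PSMD4 (-0.17), PSMD8 (-0.31), PSME1 (-0.02) and PSMG3 (-0.35), which became negative. With centring, they were those of PSMA2 (0.59), PSMA3 (0.74), PSMA4 (0.77), PSMA6 (0.75), PSMC2 (0.18), PSMC6 (0.26), PSMD6 (0.85), PSMD12 (0.25) and PSMD14 (0.57), and of PSMC3 (-0.35), PSMC4 (-0.20), PSMD2 (-0.18), PSMD8 (-0.015) and PSMG3 (-0.059). Quantile normalization turned PSMD2 (-0.047). The cause was not tested.

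Without 1 library at a time, 16 to 18 members were higher, 14 to 15 lower and 1 passed the cutoff of 1.5, the core median was 0.30 to 0.50, the regulatory median -0.54 to -0.42, their difference 0.78 to 0.97, and alpha minus beta -1.08 to -0.85. Of 198 single-member values, 8 no longer passed the test (PSMA2, PSMC3 and PSMD13). DESeq2 on recovered reads lost 5 calls (PSMA2, PSMA3, PSMA4, PSMA6 and PSMC1), DESeq2 size factors 4, quantile normalization 4 (PSMA1, PSMA2, PSMA6 and PSMD2), and library-size and upper-quartile scaling 2 each. TMM scaling, edgeR, both pseudocounts and the filter changed no call of a member. Same-numbered libraries correlated in their deviations with r of -0.018, -0.246 and -0.141, so the numbers do not pair them; a replicate block left 17 members higher (PSMD13 had an adjusted p of 0.0633) and 15 lower.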
